A study of Mus musculus with 6 samples.

Results

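The miRNAs described here belong to miR-7, miR-9, miR-128, miR-129, miR-218 and miR-184, miRNAs known from neurons and their progenitors. They were chosen by name, taking every copy number, arm and end variant, and table rows that share name and sequence were added up. This gave 9 of the 756 distinct features in the deposited table, from 15 table rows. Small RNA was sequenced from 6 libraries labelled Mes23.5, a dopaminergic hybrid of mouse neuroblastoma and rat embryonic midbrain cells. In the SIX2_EV group (3 libraries) the cells were given extracellular vesicles, membrane particles that carry RNA between cells, from microglia overexpressing the transcription factor SIX2. In the control_EV group (3 libraries) the vesicles came from control microglia. Every library was also labelled as stimulated for 24 h with LPS, a component of bacterial walls, so no unstimulated or vesicle-free library stands beside them. The series title asks about vesicle delivery of a miRNA that protects dopaminergic neurons, and the miRNAs below are not the one it names. The growth protocol names BV2, a mouse microglial line, where the other labels name Mes23.5. Whether the replicates are separate cultures is not stated, so every p-value rests on a spread between libraries that may be technical.

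A miRNA is cut from a hairpin precursor and guides the silencing complex to messenger RNAs, mainly through pairing of its bases 2 to 8, the seed. The 2 arms of a hairpin, 5p and 3p, can both yield a miRNA with its own seed. In neurons miR-7 is known for repressing alpha-synuclein and for being bound by the circular RNA Cdr1as, miR-128 for dampening neuronal excitability, and miR-9 for its part in the turn of progenitors into neurons. miR-129 acts on ion channels and pumps at synapses, miR-218 is abundant in motor neurons, and miR-184 is known from neural stem cells and from the lens and cornea.

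The 9 deposited sequences show which molecules were counted and how they would pair. They are given 5′ to 3′ with T for U as deposited, with the seed in capitals and under their deposited names, in which rno stands for rat and R+1 or L-1 for a shifted end.
rno-miR-7a-5p_R+1: tGGAAGACtagtgattttgttgtt
rno-miR-7a-1-3p_L-1R+1: cAACAAATcacagtctgccata
rno-miR-128-3p: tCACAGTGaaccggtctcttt
rno-miR-128-1-5p: cGGGGCCGtagcactgtctga
rno-miR-9a-5p_R-2: tCTTTGGTtatctagctgtat
rno-miR-129-5p: cTTTTTGCggtctgggcttgc
rno-miR-129-2-3p: aAGCCCTTaccccaaaaagcat
rno-miR-218a-5p: tTGTGCTTgatctaaccatgt
rno-miR-184: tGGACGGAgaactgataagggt
The 9 seeds are all distinct, so these miRNAs form no seed family among themselves. Against the mouse mature miRNAs of RefSeq (GRCm38.p6), to which all 9 matched, 7 sequences were identical. miR-7a-5p was 24 bases long, 1 base longer at its 3′ end than the RefSeq form of 23, and miR-9a-5p was 2 bases shorter at its 3′ end. All 9 began at the RefSeq start, which keeps the seed as annotated, although the table files them under rat names. The longer miR-7a-5p lies whole in both deposited miR-7a hairpins, so its last base is part of the precursor. Outside the group, 1 other feature, miR-6539, shares the seed of miR-128-3p. The first 8 bases of miR-128-3p also stand in miR-27a-3p and miR-27b-3p, shifted by 1 base so that they begin at base 2. No other sequence filed under the same rat hairpin names and no row named miR-7b was found among the rows analysed here. Sequences filed under other names of these hairpins were not searched for.

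The 15 rows place the 9 features on 12 hairpin loci. Positions are given as deposited, in a build not given in the sources used here, and host genes come from GENCODE M21 (GRCm38) by the mouse gene's name. miR-7a-5p was assigned to chr13:58540590-58540734 (minus strand), a hairpin hosted by an intron of Hnrnpk, and to chr7:78538025-78538121 (plus strand), which lies in no annotated host. miR-128-3p was assigned to chr1:128130065-128130189 (plus), in an intron of R3hdm1, and to chr9:111947700-111947783 (minus), in an intron of Arpp21. Reads of these mature sequences cannot be told apart by locus, whereas miR-7a-1-3p and miR-128-1-5p were each assigned to 1 hairpin, the Hnrnpk and the R3hdm1 copy. The labelled cells are a mouse and rat hybrid, and whether any of these reads came from rat hairpins was not tested. The miR-129-5p sequence is shared by chr6:29022607-29022697 (plus), in an exon of the non-coding gene Gm3294, and by chr2:94071705-94071802 (minus), in an intron of the non-coding gene Mir670hg. The 3p arm was assigned to the second of these alone. The 2 miR-218a hairpins lie in introns of Slit2, at chr5:48381254-48381414 (plus), and Slit3, at chr11:35507643-35507752 (plus). The single miR-184 hairpin, at chr9:89684306-89684389 (minus), has no annotated host. Each of the 3 miR-9a hairpins belongs to a long non-coding gene: Gm3764 at chr3:88122905-88122993, C130071C03Rik at chr13:83886925-83887011 and Mir9-3hg at chr7:79155012-79155101, all on the plus strand.

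The libraries differ in ways that bear on every value below. Deposited reads numbered 179621 to 232635 in SIX2_EV and 253037 to 421279 in control_EV, and mature miRNAs of mouse hairpins took 6.78% to 32.6% of them in SIX2_EV and 31.5% to 70.8% in control_EV. Sequences deposited under the name mir-1285 took 7.94% of reads in SIX2_EV replicate 3 and 7.47% in control_EV replicate 3, and at most 0.447% in the other 4 libraries, so the third libraries stand apart. Values under about 5 reads are nearly absent from the table, so a 0 means only that the sequence was listed at 0 in that library. If low counts alone set the zeros, a 0 stands for fewer than about 5 reads, and whether they alone did was not tested.

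miR-7a-5p supplied most of the reads of these miRNAs. The 9 features together had 216, 160 and 694 reads in SIX2_EV replicates 1, 2 and 3, against 749.99, 1536 and 2714 reads in control_EV (a fractional value arises where reads were split over loci). They took 0.120%, 0.0688% and 0.377% of all reads in SIX2_EV, against 0.291%, 0.607% and 0.644% in control_EV, or 0.189% ± 0.165 and 0.514% ± 0.194 (SD, n = 3 each). SIX2_EV replicate 3 lay above control_EV replicate 1, so the groups overlapped in this share. Per 10000 mature reads of mouse hairpins the sums, with 95% Wilson intervals, were 86.6 (75.8 to 98.9), 101.4 (86.9 to 118.3) and 115.4 (107.2 to 124.3) in SIX2_EV. In control_EV they were 92.4 (86.1 to 99.3), 107.0 (101.8 to 112.5) and 90.9 (87.6 to 94.4). On this base the control_EV libraries lay inside the SIX2_EV range, with SIX2_EV replicate 1 below and SIX2_EV replicate 3 above them, and with means of 101.1 ± 14.4 and 96.8 ± 8.88 (SD, n = 3 each). This base was chosen after the data were seen, and it matters. The base can be widened to mature names that have a mouse position but no mouse hairpin. The sums were then 47.5, 26.1 and 100.2 per 10000 in SIX2_EV and 78.9, 102.0 and 88.8 in control_EV. Intervals cover counting error only. In bulk RNA, fewer cells of a type and less RNA per cell cannot be told apart.

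**Figure D1:**
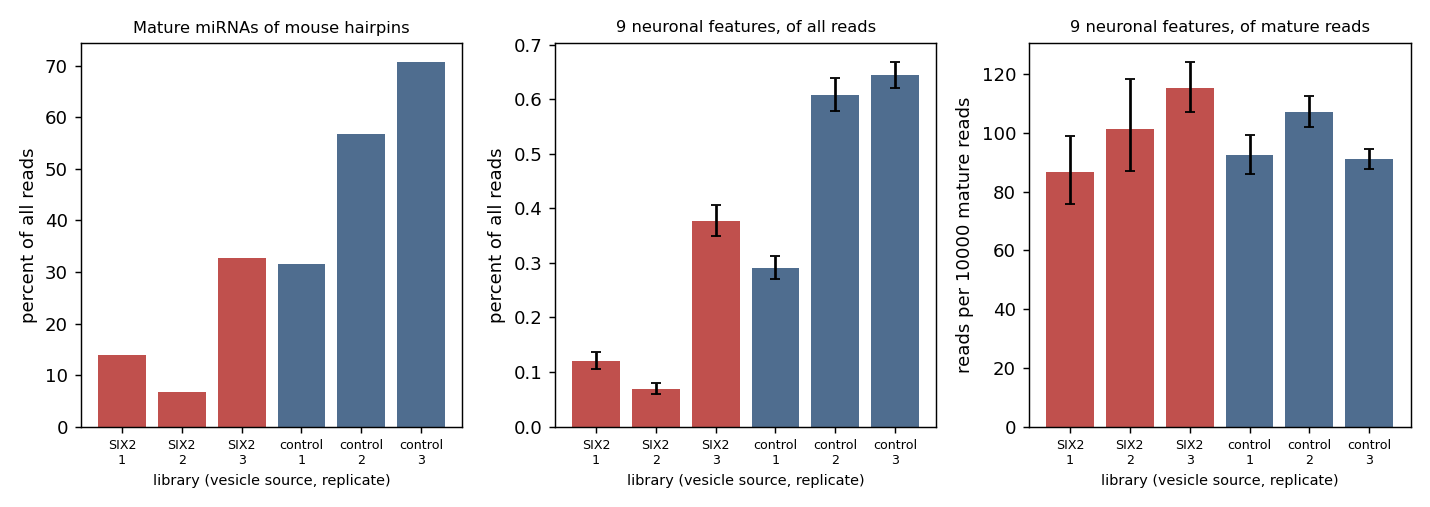
Percent of all reads that were mature miRNAs of mouse hairpins (left), percent of all reads from the 9 neuronal features (middle) and their reads per 10000 mature reads (right), in each library, with 95% Wilson intervals in the middle and right panels. The middle bars follow the left ones, while the right bars lie between 86.6 and 115.4 in SIX2_EV and between 90.9 and 107.0 in control_EV.

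The order of levels was led by miR-7a-5p in every library. Levels are in CPM, counts scaled to the TMM effective library, and the 9 sequences are of similar length, 21 to 24 bases. The effective library is the reads of the tested features times a TMM factor. This factor was 0.586, 0.308 and 1.20 in SIX2_EV and 1.07, 1.59 and 2.73 in control_EV, so CPM here are not shares of all reads. The lowest miR-7a-5p level, 1570 CPM in control_EV replicate 3, lay above the highest of any other feature of the group, 435.5 CPM for miR-129-5p in that same library. Next by group mean came miR-129-5p, miR-128-3p, miR-129-2-3p and miR-184 in SIX2_EV, against miR-128-3p, miR-129-5p, miR-184 and miR-129-2-3p in control_EV. Over all 6 libraries each of these 4 overlapped the others, so their ranges do not resolve the order. Within libraries, miR-129-5p had more reads than miR-129-2-3p wherever it was listed. The counts were 6 against 0 and 73 against 26 in SIX2_EV replicates 2 and 3. In control_EV they were 32 against 17, 62 against 32 and 487 against 89. The other pairs of these 4 changed order between libraries. miR-128-1-5p, miR-9a-5p, miR-7a-1-3p and miR-218a-5p came last, with at most 2 libraries above 0 in each case. miR-7a-5p took 96.3%, 86.9% and 82.6% of the group's reads in SIX2_EV, against 85.9%, 75.1% and 64.7% in control_EV, again with overlap. Among the 210 tested mature miRNAs of mouse hairpins it ranked 29th by mean CPM, between miR-23a-3p and miR-30c-5p, whose levels overlapped with its own. miR-129-5p ranked 124th, between miR-345-3p and miR-181b-5p, likewise within its spread.

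**Figure D2:**
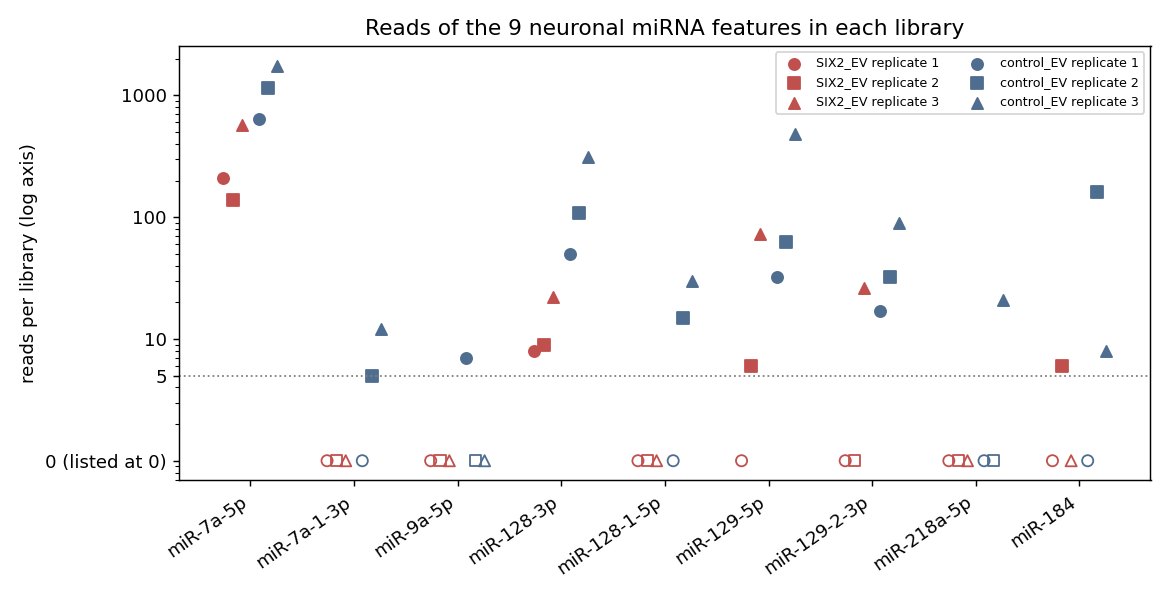
Deposited reads (log axis) of each of the 9 features in each of the 6 libraries; hollow symbols are values listed at 0 and the dotted line marks 5 reads. miR-7a-5p lies at 139 to 573 reads in SIX2_EV and 644 to 1756 in control_EV, while 4 features have no filled symbol in SIX2_EV.

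Of the 9 features, 4 passed the filter on low counts and were tested (miR-7a-5p, miR-128-3p, miR-129-5p and miR-129-2-3p) and 5 did not. By edgeR's quasi-likelihood test 0 of these 4 passed an adjusted p of 0.05, and neither did any of the 319 features tested (0%). At an unadjusted p under 0.05, 0 of the 4 were lower in SIX2_EV, against 21 of the 319 (6.58%), and 39 of the 319 were past it in either direction. DESeq2 called 0 of the 4, against 20 of the 312 features to which it gave an adjusted p (6.41%). The log2 fold changes, SIX2_EV over control_EV, were negative for all 4 with TMM, with a median of -0.77. That has to be read against the median of all tested features, which was -0.30 with TMM, 0.03 with mature reads of mouse hairpins as library size, -0.65 with all mature names that have a mouse position and -1.54 with total counts. With mature reads of mouse hairpins as library size 3 of the 4 were negative. Of the 4, miR-128-3p, miR-129-5p and miR-129-2-3p had at most 9 reads in each of 2 SIX2_EV libraries. They met the low-count filter only with control_EV libraries counted, which favours negative values among the features tested. The part of the filter in these signs and medians was not tested. Negative values were common among the 210 tested mature miRNAs of mouse hairpins too: 167 were negative with TMM, with a median of -0.43. With total counts the median of these 210 was -1.74, against -1.70 for the 4. With mature reads of mouse hairpins as library size it was -0.13, against -0.60 for the 4, so there too more of the 210 were negative than positive.

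miR-7a-5p, the miRNA of this group linked to alpha-synuclein, overlapped between the groups. It had 208, 139 and 573 reads in SIX2_EV and 644, 1154 and 1756 reads in control_EV. In CPM it had 1978, 1946 and 2605 in SIX2_EV, against 2355, 2888 and 1570 in control_EV. The SIX2_EV values all fell inside the range of the control_EV values. The log2 fold change was -0.06 (SE 0.30) (edgeR adjusted p 0.943). The sign of this small value turned with the scaling: it was 0.29 (SE 0.23) with mature reads of mouse hairpins as library size and 0.10 (SE 0.30) with DESeq2, but -0.42 (SE 0.56) with mature reads with a mouse position and -1.22 (SE 0.81) with total counts. Per 10000 mature reads of mouse hairpins miR-7a-5p had 83.4 (interval 72.9 to 95.5), 88.1 (74.7 to 103.9) and 95.3 (87.8 to 103.4) in SIX2_EV, against 79.4 (73.5 to 85.7), 80.4 (75.9 to 85.2) and 58.8 (56.2 to 61.7) in control_EV. Every SIX2_EV library lay above every control_EV library on this base, but the closest libraries overlapped in their counting intervals. The exact two-sided permutation p was 0.1, the smallest that 3 against 3 libraries allow, and 6.19% of the 210 mature miRNAs showed the same order. The order was lost per 10000 mature reads with a mouse position, where miR-7a-5p had 45.7, 22.6 and 82.7 in SIX2_EV, against 67.7, 76.6 and 57.4 in control_EV, and the SIX2_EV mean was the lower (50.4 ± 30.3 against 67.3 ± 9.59, SD, n = 3 each). Its other arm, miR-7a-1-3p, stood at 0 throughout SIX2_EV, against 0, 5 and 12 reads in control_EV.

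The features whose pattern over the 6 libraries was most like that of miR-7a-5p were miR-30a-5p, miR-30e-5p and miR-183-5p. Their centred log2(CPM + 1) values differed from those of miR-7a-5p by a root mean square of 0.14, 0.16 and 0.17, among 143 mature miRNAs of at least 100 CPM. In SIX2_EV, miR-30a-5p stood at 2387, 2352 and 3528 CPM, against 2921, 3621 and 2510 CPM in control_EV. All values share the same 6 libraries and the same scaling.

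All 3 SIX2_EV libraries held less miR-128-3p than the lowest control_EV library, but the difference did not pass the test. It had 8, 9 and 22 reads in SIX2_EV, against 50, 108 and 311 reads in control_EV. In CPM it had 76.1, 126.0 and 100.02 in SIX2_EV, against 182.8, 270.3 and 278.1 in control_EV, with means of 100.7 ± 25.0 and 243.7 ± 52.9 (SD, n = 3 each). The groups did not overlap. The same order was found for 54 of the 319 tested features (16.9%), and for 49 of the 210 mature miRNAs (23.3%), so it was a common one in these libraries. The log2 fold change was -1.28 (SE 0.59), and edgeR gave an unadjusted p of 0.0706 and an adjusted p of 0.489. DESeq2 gave -1.17 (SE 0.43) and an adjusted p of 0.0696. With total counts the log2 fold change was -2.76 (SE 1.29) with mature reads with a mouse position -1.81 (SE 0.92) and with mature reads of mouse hairpins -0.95 (SE 0.62), none past the threshold by edgeR (adjusted p 0.344, 0.577 and 0.685).

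Per 10000 mature reads of mouse hairpins the order was the same. miR-128-3p had 3.21 (interval 1.63 to 6.33), 5.70 (3.00 to 10.8) and 3.66 (2.42 to 5.54) in SIX2_EV, against 6.16 (4.67 to 8.12), 7.52 (6.23 to 9.08) and 10.4 (9.33 to 11.6) in control_EV. The means were 4.19 ± 1.33 and 8.04 ± 2.18 (SD, n = 3 each). The exact two-sided permutation p was again 0.1. SIX2_EV replicate 2 and control_EV replicate 1 were the closest libraries, and their intervals overlap. Of the 210 mature miRNAs, 11.9% were lower in SIX2_EV without overlap on this base. Per 10000 mature reads with a mouse position miR-128-3p had 1.76, 1.47 and 3.18 in SIX2_EV, against 5.26, 7.17 and 10.2 in control_EV. The groups did not overlap here either, but how many of the 210 mature miRNAs show this order on this base was not counted. With this base as library size the 319 tested features already leaned lower in SIX2_EV, with a median of -0.65 on the log2 scale.

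The balance of miR-128-3p and miR-7a-5p within a library needs no scaling. miR-128-3p made up 3.70% (interval 1.89 to 7.14), 6.08% (3.23 to 11.2) and 3.70% (2.45 to 5.53) of the reads of both in SIX2_EV, against 7.20% (5.51 to 9.37), 8.56% (7.14 to 10.2) and 15.0% (13.6 to 16.7) in control_EV. There were 26.0, 15.4 and 26.0 reads of miR-7a-5p per read of miR-128-3p in SIX2_EV and 12.9, 10.7 and 5.65 in control_EV. The 2 groups did not overlap in this ratio either, with control_EV replicate 3 farthest from the SIX2_EV libraries. The pair was chosen after its values were seen, so the ratio is a description. It restates the values of the 2 miRNAs given above, and how many other pairs show the same order was not counted. The 5p arm, miR-128-1-5p, stood at 0 throughout SIX2_EV, against 0, 15 and 30 reads in control_EV, where it made up 12.2% and 8.80% of the reads of both arms in replicates 2 and 3.

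**Figure D3:**
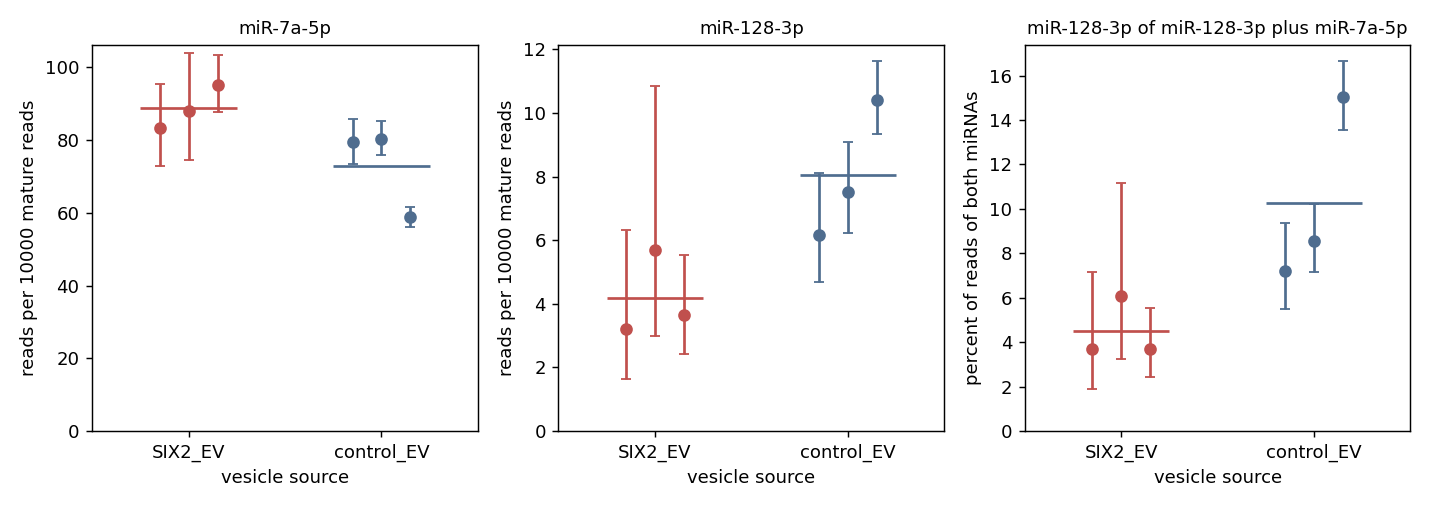
Reads per 10000 mature reads of miR-7a-5p (left) and miR-128-3p (middle), and miR-128-3p as a percent of the reads of both (right); points are libraries with 95% Wilson intervals, in replicate order, and lines are group means. In the right panel the SIX2_EV libraries lie at 3.70% to 6.08% and the control_EV libraries at 7.20% to 15.0%.

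miR-129 gave both arms of its hairpin, and its 5p arm was highest in replicate 3 of each group. The deposited miR-129-2 hairpin (98 bases, chr2:94071705-94071802, minus strand, as deposited) shows the 2 arms, in capitals, as the paired sides of the precursor.
rno-mir-129-2: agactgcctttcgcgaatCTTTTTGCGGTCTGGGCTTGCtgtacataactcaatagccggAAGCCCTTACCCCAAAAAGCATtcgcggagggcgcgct
miR-129-5p had 0, 6 and 73 reads in SIX2_EV, against 32, 62 and 487 reads in control_EV. In CPM it had 0, 84.0 and 331.9 in SIX2_EV, against 117.0, 155.2 and 435.5 in control_EV. The third library was the highest of its group in both cases, and SIX2_EV replicate 3 lay above control_EV replicates 1 and 2, so the groups overlapped. Per 10000 mature reads the third libraries had 12.1 in SIX2_EV and 16.3 in control_EV, while no other library passed 4.32. These are the libraries with the high mir-1285 share given above, and the part of that share in the miR-129-5p values was not tested. The log2 fold change was -0.74 (SE 1.42) (edgeR adjusted p 0.857), and it turned to 0.16 (SE 1.64) without control_EV replicate 3. In replicates 1 and 2 alone it was -1.63 (SE 1.53).

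miR-129-2-3p had 0, 0 and 26 reads in SIX2_EV, against 17, 32 and 89 reads in control_EV. In CPM it had 0, 0 and 118.2 in SIX2_EV, against 62.2, 80.1 and 79.6 in control_EV. The third SIX2_EV library was above every control_EV library and the other 2 were below, so the groups overlapped. The log2 fold change was -0.79 (SE 1.54) (edgeR adjusted p 0.857), and 0.06 (SE 0.46) with zeros set to 4. The controls at about 62 to 80 CPM compare with 47.6 and 70.0 CPM for 5 reads in SIX2_EV replicates 1 and 2, which leaves little room to see a lower level there. Without SIX2_EV replicate 3 both remaining SIX2_EV libraries were at 0, and the fitted value of -7.85 is no measure of size. Where both arms were listed, there were 2.81 reads of miR-129-5p per read of miR-129-2-3p in SIX2_EV replicate 3, against 1.88, 1.94 and 5.47 in control_EV replicates 1, 2 and 3.

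The features nearest to miR-129-5p in pattern were miR-700-3p, miR-3968 and miR-1983, with root mean square differences of 0.35, 0.79 and 1.75 over the 6 libraries. miR-700-3p had 0, 70.0 and 245.5 CPM in SIX2_EV, against 98.7, 87.6 and 215.5 CPM in control_EV, with a 0 in SIX2_EV replicate 1 and its highest values in replicate 3 of each group.

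**Figure D4:**
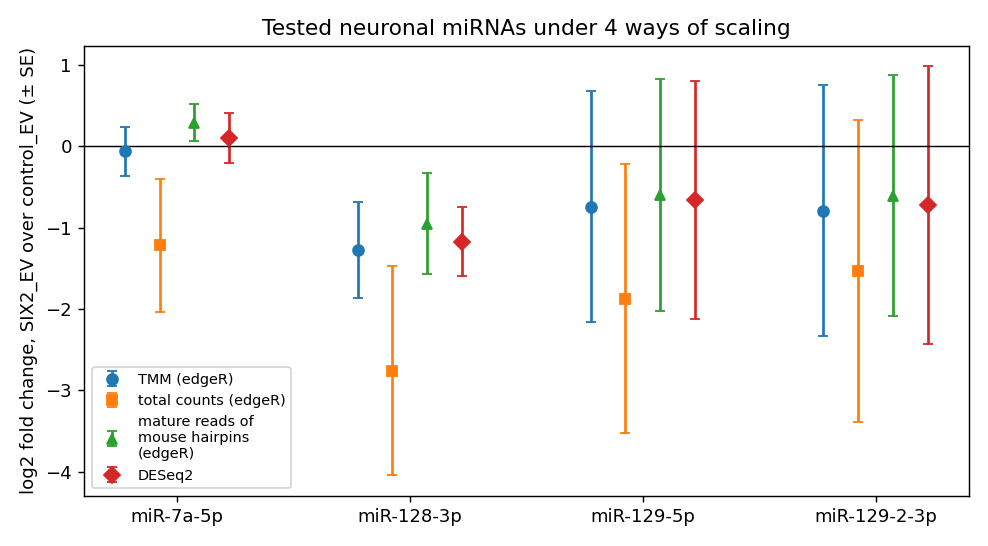
Log2 fold change (SIX2_EV over control_EV) with its SE for the 4 tested features under TMM, total counts and mature reads of mouse hairpins as library size (edgeR) and under DESeq2. miR-128-3p lies below 0 under all 4, from -2.76 to -0.95, while miR-7a-5p runs from -1.22 to 0.29.

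miR-184 was seen mainly in a single library. It had 0, 6 and 0 reads in SIX2_EV, against 0, 160 and 8 reads in control_EV. At the level of control_EV replicate 2, 400.4 CPM, the SIX2_EV libraries would have held 42.1, 28.6 and 88.1 reads, and control_EV replicates 1 and 3 would have held 109.5 and 447.8. The 0 and 8 reads listed there show how far replicates of control_EV lay apart, and miR-184 did not pass the filter used. With a filter of 10 CPM in 3 libraries its log2 fold change was -2.42 (SE 2.60, edgeR adjusted p 0.842), and with no filter -2.40 (SE 2.12, edgeR adjusted p 0.624).

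miR-9a-5p and miR-218a-5p were at the edge of what the table lists. miR-9a-5p stood at 0 throughout SIX2_EV, against 6.99, 0 and 0 reads in control_EV, from reads split over 3 hairpins. miR-218a-5p also stood at 0 throughout SIX2_EV, against 0, 0 and 21 reads in control_EV, all in the deepest library. Together with miR-7a-1-3p and miR-128-1-5p, this makes 4 of 9 features at 0 in every SIX2_EV library and 0 of 9 in every control_EV library. Of all 756 features, 36.4% were at 0 in every SIX2_EV library and 2.78% in every control_EV library, and of the 384 mature miRNAs of mouse hairpins 31.2% in SIX2_EV and 0.781% in control_EV. The highest control levels of these 4 were 12.5 to 37.5 CPM, at which the SIX2_EV libraries would have held 0.894 to 8.26 reads. That is around the 5 reads from which the table lists a sequence, so a lower level was hardly detectable at this depth. The number of features above 0 was 2, 4 and 4 in SIX2_EV, against 5, 7 and 8 in control_EV, and features above 0 over the whole table numbered 276 to 419 in SIX2_EV and 439 to 680 in control_EV.

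The label of a neuronal cell was set against a list of 28 neuronal miRNAs, of which 13 were matched to a row. No row named miR-124, a defining miRNA of neurons, or miR-9-3p was found among those analysed here, and miR-9a-5p stood at 0 in 5 of 6 libraries. The list summed to 98.6 to 147.2 per 10000 mature reads in SIX2_EV and 117.5 to 143.9 in control_EV, and miR-7a-5p was its largest part in every library. All 7 markers of a myeloid and microglial list were matched, and they summed to 1144 to 1480 in SIX2_EV and 939 to 1327 in control_EV. Only the most abundant feature of a marker was counted. This left out further features of miR-146a-5p, miR-155-5p, miR-150-5p, miR-342-3p and the red blood cell marker miR-486a-5p, but none of the neuronal list. Most of this was miR-146a-5p, a miRNA induced by inflammatory signals such as LPS, with 931 to 1326 in SIX2_EV and 705 to 1161 in control_EV. The other 6 myeloid markers summed to 154.0 to 212.2 in SIX2_EV and 166.1 to 233.4 in control_EV, and miR-223-3p was at 0 in 2 libraries. Their largest part was miR-142a-5p, a miRNA of blood cells, with 107.5 to 137.4 in SIX2_EV and 115.1 to 141.9 in control_EV. It lay above miR-7a-5p in every library. Red blood cell markers (3 of 3 matched) summed to 508 to 896 in SIX2_EV and 325 to 854 in control_EV, and endothelial markers (2 of 2) to 34.9 to 41.2 in SIX2_EV and 28.0 to 80.9 in control_EV. Oligodendroglial markers (1 of 3) summed to at most 4.81 in SIX2_EV and 1.36 in control_EV. The part of other cells' RNA in the values of the neuronal miRNAs was not tested.

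Outside the 6 miRNA families, the neuronal list holds 19 miRNAs, of which 6 were matched to a row and 5 were tested. By edgeR 0 of the 5 passed an adjusted p of 0.05, and all 5 had negative log2 fold changes with TMM, with a median of -1.31 against -0.43 over the 210 mature miRNAs, of which 167 were negative. miR-132-3p, a miRNA induced by neuronal activity and by inflammatory signals, had 13, 10 and 34 reads in SIX2_EV, against 68, 142 and 486 in control_EV. Its log2 fold change was -1.31 (SE 0.50) (edgeR adjusted p 0.368). The values for miR-212-3p, which shares its precursor transcript with miR-132, and for miR-139-5p were -1.37 (SE 1.68) and -1.55 (SE 1.18). Those for miR-326-3p and miR-330-3p were -0.55 (SE 0.73) and -0.77 (SE 1.63), and miR-487b-3p did not pass the filter. In at least 1 SIX2_EV library miR-212-3p, miR-139-5p, miR-326-3p and miR-330-3p each had at most 5 reads. They met the filter only with control_EV libraries counted, which favours negative values. The part of the filter in the median of the 5 was not tested.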

How the data were processed

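Small RNA was measured in 3 SIX2_EV and 3 control_EV libraries. Per the labels' protocols, total RNA from Trizol went into TruSeq small RNA libraries, and the authors filtered the reads with ACGT101-miR. Mapping settings, miRBase release and build: not given in the sources used here. In the deposited form the table holds estimated counts per sequence and locus, split over loci, per the file headers, and, beside them, a normalized signal by the authors (the same counts multiplied by a factor for each library). The signal entered only as an alternative scaling.

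Rows that share name and sequence were added up and rounded: 823 rows gave 756 features, and 89.8% of values above 0 were whole within 0.05. Added up further by sequence alone (724 distinct sequences), 2410 values were above 0, of which 31 were under 5 and 169 equal to 5. Mature miRNAs of mouse hairpins are 384 features. The comparison used the quasi-likelihood test of edgeR 4.0.16 (R 4.3.3) with TMM, filterByExpr and Benjamini-Hochberg adjustment over all 319 features tested. Alternatives used DESeq2 1.42.0, limma-voom (limma 3.58.1), other scalings, filters and sets of libraries. The procedure was also run on simulated counts with the same fixed spread for every feature, which does not show how it behaves with the spread of these replicates. Exact two-sided permutation tests used scipy 1.17.1. Replicates differed beyond counting error in every pair (lowest chi-square per degree of freedom 56.9).

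The members and marker lists were chosen with earlier results of these data known. The rule named all members, the neuronal list's other miRNAs where tested, the 3 mature miRNAs of at least 100 CPM nearest in pattern to each of the 2 most abundant members, and the rank neighbours of both. Of the 12 hairpin positions all 12 were on the RefSeq chromosome, but 1 overlapped its GRCm38 position, so builds were not mixed.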

Additional observations from a re-analysis of the deposited data

How the results depend on the processing

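In each of the 20 alternatives 0 of the neuronal miRNAs passed the threshold, and 0 features of the whole table passed in 19 of them, while DESeq2 called 20. miR-128-3p was negative in all 20, from -2.76 to -0.95 on the log2 scale (adjusted p 0.0696 to 0.979 by the tool used), and from -1.44 to -1.02 when each library was left out in turn. miR-7a-5p was negative with TMM but 0.29 with mature reads of mouse hairpins as library size, 0.15 with mature names of mouse hairpins only, 0.10 with DESeq2, 0.0311 with zeros set to 4, and between -0.12 and 0.11 when each library was left out, positive without SIX2_EV replicate 2 (0.09) or control_EV replicate 2 (0.11). miR-129-5p ran from -2.45 to 0.16 when each library was left out, and miR-129-2-3p from -7.85 to -0.29, with 0.0551 when zeros were set to 4. The cause of these changes was not tested. The mean summed share was 0.579% in SIX2_EV and 0.899% in control_EV of mature reads with a mouse position, 1.01% and 0.968% of mature reads of mouse hairpins, and without miR-7a-5p 0.0264% of all reads in SIX2_EV and 0.140% in control_EV. The settings built on mature names of mouse hairpins were chosen after seeing the data.

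Replicate numbers are shared by the groups. Same-numbered libraries deviated together with correlations of 0.19, 0.05 and 0.62. SIX2_EV replicate 1 correlated best with control_EV replicate 2, and SIX2_EV replicate 2 with control_EV replicate 1, so the numbers were not taken as pairs. The third libraries correlated best with each other, and they are those with the high mir-1285 share given above. With the replicate number as a block 0 features passed, 45 had an unadjusted p under 0.05, and the log2 fold changes were -0.03 for miR-7a-5p, -1.28 for miR-128-3p, -1.60 for miR-129-5p and -2.76 for miR-129-2-3p.

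Depth is 1 of the limits: 8 to 22 reads stand behind miR-128-3p in SIX2_EV, and 5 reads are worth 22.7 to 70.0 CPM there against 4.47 to 18.3 CPM in control_EV.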
